A study of Caenorhabditis elegans with 21 samples.

Results

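The genes described here are skn-1, which encodes the transcription factor SKN-1, and 4 genes whose products release or process it: ddi-1, png-1, sel-1 and sel-11. They were chosen by gene symbol and are 5 of the 46254 gene IDs of the table. All 5 passed the filter on low values, at least 1 FPKM in 3 or more libraries, and so were among the 17492 genes tested. FPKM, the fragments per kilobase of transcript at a common number of mapped fragments, is a level per transcript length, so levels of different genes can be set side by side.

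SKN-1 is the worm's relative of the mammalian Nrf factors. One of its forms, SKN-1A, is made at the membrane of the endoplasmic reticulum (ER): the ER-associated degradation machinery, with the adaptor SEL-1 and the ubiquitin ligase SEL-11 (the worm SEL1L and HRD1), takes it out of the ER, the glycanase PNG-1 removes its sugars, and the aspartyl protease DDI-1 cuts it. SKN-1A then raises transcription of the proteasome subunit genes when the proteasome is impaired. Another form, SKN-1C, is held in check by WDR-23 and drives detoxification genes, and maternal SKN-1 specifies endoderm in the embryo.

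Whole-organism RNA of wild-type (N2) C. elegans was sequenced as stranded mRNA libraries in 7 groups of 3. The worms were day 1 adults, kept at 20 °C with E. coli OP50 as food. Proteasome impairment came from RNAi against rpn-6 (a subunit of the proteasome lid) from the L3 stage, or from the proteasome inhibitor bortezomib at 10 µM or 25 µM from L4 until the next day. The other stresses were 15 h on plates without food before collection, 200 µM fluphenazine (a phenothiazine) and 200 µM cantharidin (a phosphatase inhibitor), both drugs also from L4 until the next day. Controls were untreated; no group given the drug solvent or an empty RNAi vector is named in the labels. The labels do not say that the 3 libraries of a group came from separate cultures, so the p-values measure the spread between these libraries, which may be technical. In whole-worm RNA, fewer cells of a type and less RNA per cell cannot be told apart.

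Total FPKM was 938941 to 1036350 per library, and relative depth, read from the steps between low values, ran from 0.943 to 1.499 times that of control 4. Control 7, fluphenazine 4 and starvation 3 stood apart, with a mean correlation to their own group of 0.938, 0.891 and 0.843. The median gene tested was above control by 0.16 (log2) in 10 µM bortezomib and by 0.31 to 0.40 in the other 5 treatments, and of the genes called against control 68.0% to 84.3% were higher. Median-of-ratios scaling sets to 1 the median ratio of the genes above 0 FPKM in every library. After it that share was 38.3% to 52.4%, and after quantile normalization 37.8% to 46.1%. Where a scaling changes a call of a gene named below, this is given beside the call or in the closing account of the settings.

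The gene targeted by RNAi, rpn-6.1, had 114.8, 122 and 127 FPKM in rpn-6 RNAi worms, against 168, 168 and 130.2 FPKM in controls. The RNAi libraries lay below all controls, but the difference of -0.35 (log2, SE 0.14) had an adjusted p of 0.0553 (limma, Benjamini-Hochberg) and was not called; it was called without control 7 (-0.47) and under both scalings (-0.72 and -0.43). In bortezomib rpn-6.1 rose, with 219, 218 and 216 FPKM at 10 µM and 218, 221 and 210.1 FPKM at 25 µM (0.49 in both, adjusted p = 0.025 at 10 µM and 0.0066 at 25 µM). At 10 µM the call was lost without any 1 of its libraries, without control 7 (0.37) and under both scalings (0.22 and 0.43), and at 25 µM under median-of-ratios scaling (0.04). Set directly against rpn-6 RNAi, rpn-6.1 was higher by 0.84 in 10 µM bortezomib and by 0.83 in 25 µM bortezomib, both called.

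skn-1 mRNA, the precursor of every SKN-1 form, rose in rpn-6 RNAi, in 10 µM bortezomib and in cantharidin. It had 148, 147 and 159 FPKM in rpn-6 RNAi worms, 131, 129 and 131 FPKM in 10 µM bortezomib, and 112, 115.1 and 97.9 FPKM in 25 µM bortezomib. It had 83.4, 89.6 and 102 FPKM in starved worms, 90.4, 112 and 89.9 FPKM in fluphenazine, and 129.7, 118 and 140.3 FPKM in cantharidin, against 96.6, 95.1 and 80.7 FPKM in controls. All libraries of rpn-6 RNAi, both bortezomib doses and cantharidin lay above all controls, while those of starvation and fluphenazine overlapped with them. The difference from control was 0.73 in rpn-6 RNAi (log2, SE 0.10, adjusted p = 2.8e-05), 0.52 in 10 µM bortezomib (adjusted p = 0.0037) and 0.51 in cantharidin (adjusted p = 0.00127). In 25 µM bortezomib it was 0.25 with an adjusted p of 0.0513, which passed without library 6 of that group (0.32, adjusted p = 0.0289), or without control 4 (0.30, adjusted p = 0.0499), and it was 0.01 in starvation and 0.10 in fluphenazine, neither called.

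**Figure D1:**
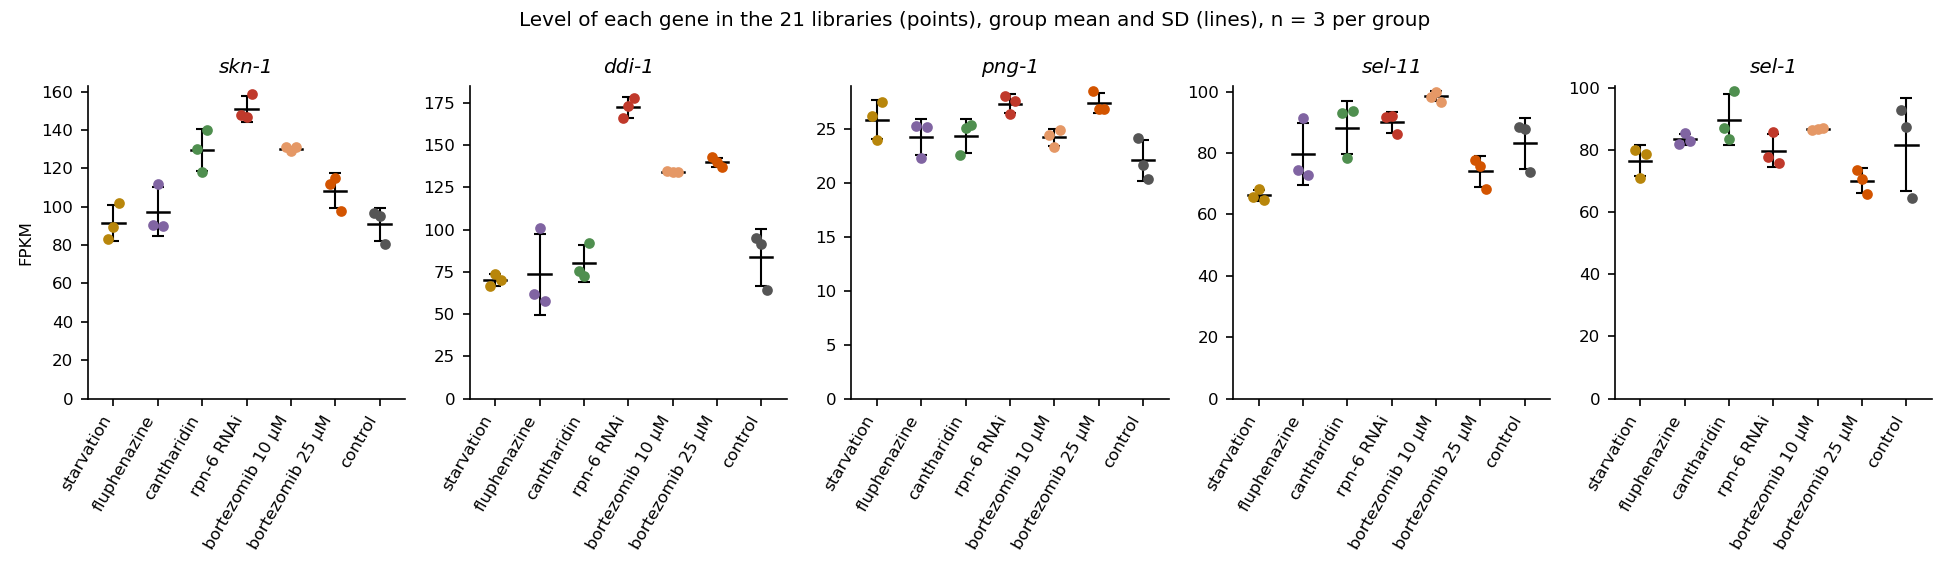
FPKM of skn-1, ddi-1, png-1, sel-11 and sel-1 in each library (points), with the group mean and SD (lines, n = 3) and controls at the right of each panel. The rpn-6 RNAi libraries stand highest for skn-1 (147 to 159 FPKM) and ddi-1 (166 to 178.1 FPKM), whereas png-1 lies between 20.4 and 28.6 FPKM in all 21 libraries.

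The skn-1 rise was smaller once the shift of all genes was taken off. Relative to the median gene it was 0.43 in rpn-6 RNAi, 0.36 in 10 µM bortezomib, 0.17 in cantharidin and -0.15 in 25 µM bortezomib. Under median-of-ratios scaling the differences were 0.36 (adjusted p = 0.0653), 0.25 and 0.09 in rpn-6 RNAi, 10 µM bortezomib and cantharidin, none called, and in starvation it was -0.36, which was called (adjusted p = 0.038). Under quantile normalization the calls of rpn-6 RNAi, 10 µM bortezomib and cantharidin held, at 0.63, 0.40 and 0.46. In 25 µM bortezomib the difference turned to -0.197 under median-of-ratios scaling and was 0.135 under quantile normalization, neither called. The table gives a single value per gene, and skn-1 has 4 annotated transcripts, so SKN-1A and SKN-1C messages were not separated.

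ddi-1, the protease that cuts SKN-1A, was higher in every library with an impaired proteasome than in every other library of the series. It had 166, 173 and 178.1 FPKM in rpn-6 RNAi worms, 135, 134 and 134 FPKM in 10 µM bortezomib, and 143, 139.5 and 137 FPKM in 25 µM bortezomib. It had 66.8, 73.8 and 69.96 FPKM in starved worms, 62.2, 101 and 57.5 FPKM in fluphenazine and 75.5, 72.3 and 92.4 FPKM in cantharidin, against 95.2, 91.4 and 64.2 FPKM in controls. The lowest of the 9 proteasome-impaired libraries, at 133.7 FPKM, stood above the highest of the other 12, fluphenazine 4 at 101 FPKM. The share of all genes whose libraries separate in this way, or lie above all controls, is not given here. Control 7 was the lowest control and fluphenazine 4 the highest of its group, so that the spread in both groups was wide (SD 16.9 and 23.9 FPKM).

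The ddi-1 rise over control was 1.06 in rpn-6 RNAi (log2, SE 0.17, 2.08-fold, adjusted p = 1.03e-04), 0.70 in 10 µM bortezomib (1.62-fold, adjusted p = 0.0136) and 0.76 in 25 µM bortezomib (1.69-fold, adjusted p = 0.00157). Relative to the median gene these were 0.75, 0.54 and 0.36. The rise in rpn-6 RNAi was called under all 14 alternatives tried, between 0.68 and 1.16. The bortezomib rises were not called under median-of-ratios scaling, at 0.43 for 10 µM and 0.31 for 25 µM. In starvation, fluphenazine and cantharidin the differences were -0.23, -0.21 and -0.05, none called, while median-of-ratios scaling called starvation (-0.60) and fluphenazine (-0.62). Starvation was also called without control 7 (-0.41, adjusted p = 0.0459) and fluphenazine without fluphenazine 4 (-0.46, adjusted p = 0.00856).

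Setting the proteasome-impaired groups against the other stresses avoids the controls: median-of-ratios size factors were 0.95 to 1.17 in the treated libraries, against 0.80 to 0.83 in controls. These 9 contrasts were examined in this way after the values had been seen. The median gene differed by 0.15 or less in each of them. ddi-1 rose in all 9: by 1.29 against starvation, 1.26 against fluphenazine and 1.11 against cantharidin in rpn-6 RNAi, by 0.93, 0.90 and 0.75 in 10 µM bortezomib, and by 0.99, 0.96 and 0.81 in 25 µM bortezomib, with adjusted p-values of 0.00435 or less. The share of all genes called higher was 28.9%, 20.5% and 13.8% for rpn-6 RNAi against starvation, fluphenazine and cantharidin, 24.0%, 17.2% and 7.12% for 10 µM bortezomib, and 18.0%, 13.4% and 11.3% for 25 µM bortezomib. Each of the 9 ddi-1 calls held under all 13 alternatives, the 2 scalings included.

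skn-1 followed ddi-1 in part of these contrasts. It rose in rpn-6 RNAi against starvation (0.72) and fluphenazine (0.63) and in 10 µM bortezomib against starvation (0.51) and fluphenazine (0.42), also under both scalings. Against cantharidin it did not pass in rpn-6 RNAi (0.22, 95% interval 0.00 to 0.44) or in 10 µM bortezomib (0.01, -0.21 to 0.23). In 25 µM bortezomib it passed against none of the 3, although it was called higher than in starvation without starvation 3 (0.32) and lower than in cantharidin under quantile normalization (-0.32). sel-11 rose in rpn-6 RNAi against starvation (0.44) and in 10 µM bortezomib against starvation (0.57) and fluphenazine (0.31), while sel-1 fell in 25 µM bortezomib against cantharidin (-0.35), where 9.22% of all genes were called lower. The sel-11 calls against starvation held under all 13 alternatives. Its call against fluphenazine was lost under quantile normalization (0.21, adjusted p = 0.0564), in a fit of the 2 groups (adjusted p = 0.0843) and without fluphenazine 2, fluphenazine 9 or 10 µM bortezomib 8 (0.25 to 0.30). The sel-1 call was lost without cantharidin 1, cantharidin 9, 25 µM bortezomib 4 or 25 µM bortezomib 6 (-0.37 to -0.28). sel-11 was also called higher in rpn-6 RNAi than in fluphenazine without fluphenazine 4 (0.28), and lower in 25 µM bortezomib than in cantharidin without cantharidin 3 (-0.33) and under quantile normalization (-0.31). Quantile normalization also called sel-1 lower in rpn-6 RNAi than in cantharidin (-0.27), and in 25 µM bortezomib than in starvation (-0.26) and fluphenazine (-0.34). png-1 was called in none of the 9.

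png-1, the glycanase, was the lowest of the 5 genes and varied least. It had 28.1, 26.4 and 27.6 FPKM in rpn-6 RNAi worms, 24.5, 23.4 and 24.9 FPKM in 10 µM bortezomib and 28.6, 26.9 and 26.9 FPKM in 25 µM bortezomib. It had 26.2, 23.98 and 27.5 FPKM in starved worms, 25.3, 22.3 and 25.2 FPKM in fluphenazine and 22.6, 25.1 and 25.4 FPKM in cantharidin, against 24.2, 21.7 and 20.4 FPKM in controls. The rpn-6 RNAi and 25 µM bortezomib libraries lay above all controls and the other groups overlapped with them. Rises of 0.30 in rpn-6 RNAi (SE 0.09, adjusted p = 0.0124), 0.30 in 25 µM bortezomib (adjusted p = 0.00829) and 0.22 in starvation (adjusted p = 0.0419) passed the test. They were no larger than the shift of the median gene, from which they differed by -0.01, -0.10 and -0.16. The rise in rpn-6 RNAi reached an adjusted p of 0.050 without control 7, and that in starvation was not called without starvation 1 or 3 or control 6 or 7 (0.17 to 0.21). Both scalings turned the direction of all 3: median-of-ratios scaling gave -0.07, -0.13 and -0.14, and quantile normalization gave -0.07, -0.30 and -0.12.

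**Figure D2:**
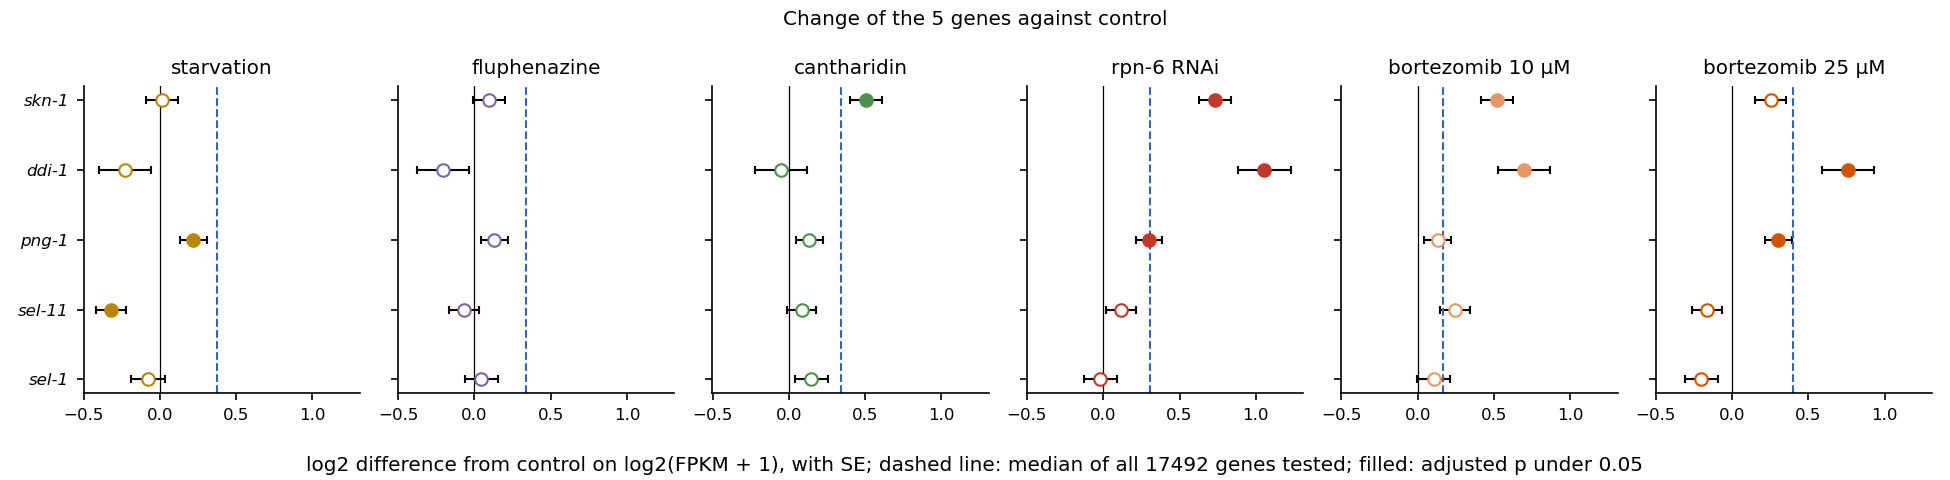
Difference from control on log2(FPKM + 1) with its SE for the 5 genes in each treatment; filled points have an adjusted p under 0.05 and the dashed line is the median of all 17492 genes. ddi-1 stands to the right of the dashed line in rpn-6 RNAi (1.06 against 0.31) and both bortezomib doses, whereas png-1 lies on or left of it in every panel.

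The 2 genes of the ER-export ligase complex were not called higher than control in any treatment. sel-11, the ubiquitin ligase, had 91.8, 92.2 and 86.2 FPKM in rpn-6 RNAi worms, 98.4, 100.1 and 96.8 FPKM in 10 µM bortezomib and 77.9, 75.9 and 68.4 FPKM in 25 µM bortezomib. It had 65.8, 68.3 and 64.7 FPKM in starved worms, 74.5, 91.4 and 72.99 FPKM in fluphenazine and 93.04, 78.4 and 93.6 FPKM in cantharidin, against 88.4, 87.7 and 73.7 FPKM in controls. Every starvation library lay below every control, and every 10 µM bortezomib library above. sel-11 fell in starvation by 0.32 on the log2 scale (SE 0.10, adjusted p = 0.0111), also under both scalings but neither without control 4 (-0.28, adjusted p = 0.0527) nor in a fit of these 2 groups alone. Its difference in 10 µM bortezomib was 0.24 (adjusted p = 0.109), and that in 25 µM bortezomib of -0.16 was called without control 7 (-0.25, adjusted p = 0.0424).

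sel-1, the adaptor of SEL-11, had 77.6, 85.7 and 75.8 FPKM in rpn-6 RNAi worms, 86.3, 86.8 and 87.1 FPKM in 10 µM bortezomib and 73.6, 70.7 and 65.7 FPKM in 25 µM bortezomib. It had 79.98, 70.8 and 78.6 FPKM in starved worms, 81.8, 85.4 and 82.8 FPKM in fluphenazine and 86.9, 83.4 and 98.8 FPKM in cantharidin, against 92.8, 87.4 and 64.6 FPKM in controls. Control 7 was the lowest of all 21 libraries, and every treatment overlapped with the controls. Differences from control ran from -0.20 to 0.15, none called. Under median-of-ratios scaling sel-1 was called lower in rpn-6 RNAi (-0.39), 25 µM bortezomib (-0.65), starvation (-0.45) and fluphenazine (-0.37). Without control 7 it was called lower in 25 µM bortezomib (-0.36, adjusted p = 0.00212) and starvation (-0.24, adjusted p = 0.024).

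Of the 5 genes, 3 were called higher than control in rpn-6 RNAi, where 36.7% of all genes were called (27.9% higher and 8.81% lower). In 10 µM bortezomib 2 were called higher against 12.9% of all genes (9.61% higher, 3.24% lower), and in 25 µM bortezomib 2 against 53.4% (42.3% higher, 11.1% lower). In starvation 1 was called higher and 1 lower against 57.5% (39.1% higher, 18.4% lower), in cantharidin 1 higher against 37.9% (31.9% higher, 5.96% lower), and in fluphenazine none against 43.8% (34.4% higher, 9.39% lower). Over the 7 groups together, an F test called skn-1 (adjusted p = 3.89e-05), ddi-1 (1.01e-05), sel-11 (0.00145) and png-1 (0.0457) but not sel-1 (0.0989), as it did 77.3% of all genes.

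**Figure D3:**
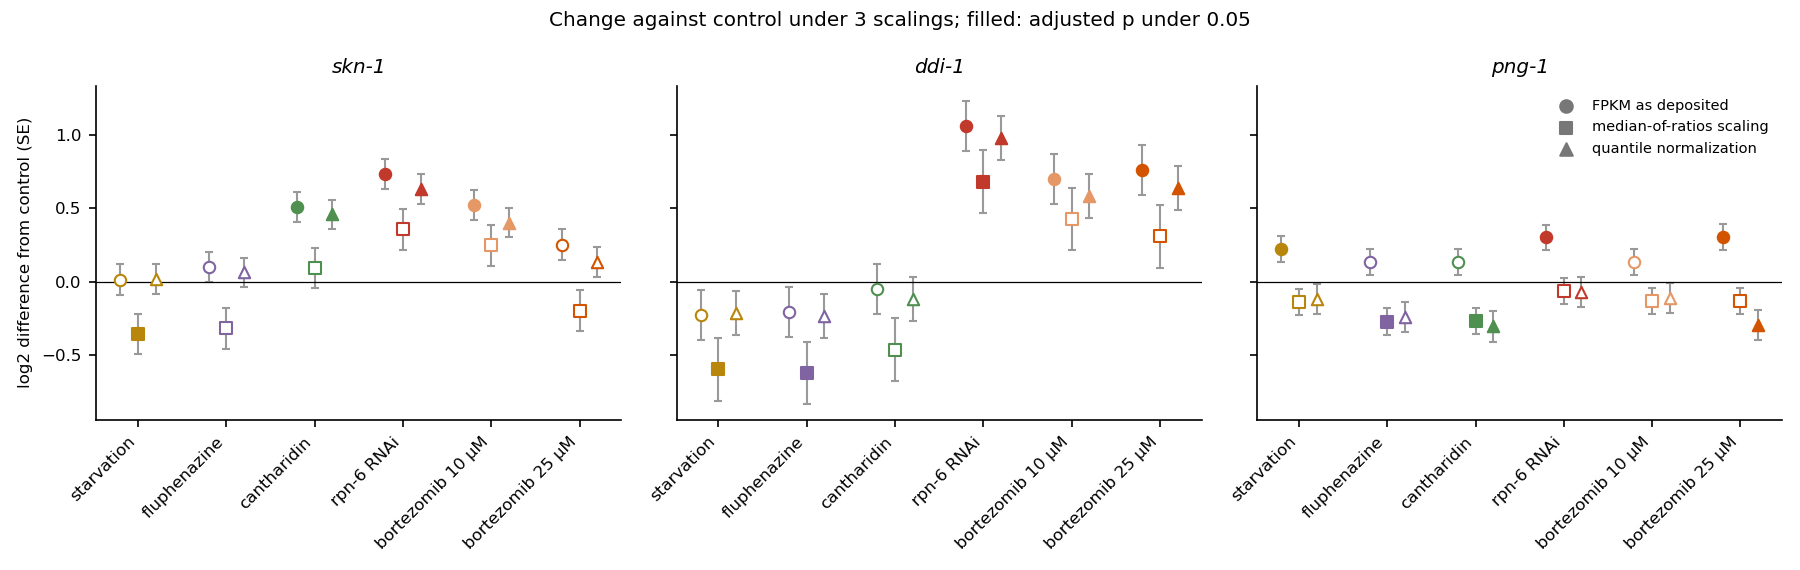
Difference from control with its SE for skn-1, ddi-1 and png-1, with FPKM as deposited (circles), after median-of-ratios scaling (squares) and after quantile normalization (triangles); filled points have an adjusted p under 0.05. Of the 3 genes, ddi-1 in rpn-6 RNAi is filled under all scalings (1.06, 0.68 and 0.98), whereas the png-1 points change side of 0.

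The 2 bortezomib doses differed at the ER-export genes. At 25 µM relative to 10 µM, sel-11 fell (-0.41, SE 0.10, adjusted p = 0.0039) and so did sel-1 (-0.31, SE 0.11, adjusted p = 0.0351), with all 25 µM libraries below all 10 µM libraries, and 12.4% of all genes were called lower. The sel-1 call was lost when any 10 µM library, 25 µM library 4 or 25 µM library 6 was left out (-0.32 to -0.26). skn-1 did not pass (-0.27, 95% interval -0.49 to -0.05, adjusted p = 0.0513), nor did ddi-1 (0.06, -0.30 to 0.42) or png-1 (0.17, -0.01 to 0.36). Against rpn-6 RNAi, 25 µM bortezomib had less skn-1 (-0.48, adjusted p = 0.00482) and less sel-11 (-0.28, adjusted p = 0.0492), where 8.01% of all genes were called lower. The sel-11 call was lost whichever library was left out (-0.32 to -0.22). Between 10 µM bortezomib and rpn-6 RNAi none of the 5 passed, against 24.1% of all genes. In that contrast ddi-1 differed by -0.36 (95% interval -0.72 to 0.00), and all of its bortezomib libraries lay below all RNAi libraries.

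Ordered by mean level, skn-1 was highest in rpn-6 RNAi (151.1 ± 6.78 FPKM, SD, n = 3), followed by 10 µM bortezomib (130.2 ± 0.827), cantharidin (129.5 ± 10.9), 25 µM bortezomib (108.2 ± 9.12), fluphenazine (97.5 ± 12.6), starvation (91.6 ± 9.44) and controls (90.8 ± 8.77). No neighbours in this order differed by the test. ddi-1 was highest in rpn-6 RNAi (172.5 ± 6.13), followed by 25 µM bortezomib (139.9 ± 2.81), 10 µM bortezomib (134.2 ± 0.574), controls (83.6 ± 16.9), cantharidin (80.1 ± 10.8), fluphenazine (73.6 ± 23.9) and starvation (70.2 ± 3.50). The step between 10 µM bortezomib and controls was its one called step. The orders of png-1, sel-11 and sel-1 held no called step. Pairs among starvation, fluphenazine and cantharidin called 6.29% (starvation against fluphenazine), 24.6% (starvation against cantharidin) and 7.74% (fluphenazine against cantharidin) of all genes. None of these pairs is a step for sel-11 or sel-1. At the png-1 steps, the share of all genes called ran from 7.74% to 50.7% (rpn-6 RNAi against starvation). At the sel-11 steps it ran from 23.8% (25 µM bortezomib against fluphenazine) to 43.8% (fluphenazine against control). At the sel-1 steps it reached 50.7% (rpn-6 RNAi against starvation).

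A ratio within each library is not changed by a single scaling factor per library, such as a median-of-ratios factor, whereas quantile normalization can change it. This ratio to sel-1 was added after the data had been seen. sel-1 had its lowest mean in 25 µM bortezomib (70.01 FPKM, against 86.74 at 10 µM and 81.6 in controls), and a lower denominator raises the ratios of that group. At 25 µM relative to 10 µM, ddi-1 itself differed by 0.06 (log2, not called) and sel-1 by -0.31. The ratio of ddi-1 to sel-1 FPKM averaged 2.17 in rpn-6 RNAi (2.02 to 2.35), 1.55 in 10 µM bortezomib (1.53 to 1.56) and 2.002 in 25 µM bortezomib (1.94 to 2.09). It averaged 0.923 in starvation, 0.879 in fluphenazine (0.695 to 1.18) and 0.890 in cantharidin, against 1.02 in controls (0.993 to 1.045). Control 7, low for both genes, had the lowest control ratio (0.993), beside 1.026 and 1.045 in controls 4 and 6. The highest ratio outside the proteasome-impaired groups was 1.183, in fluphenazine 4. The ratio of skn-1 to sel-1 was 1.71 to 2.10 in rpn-6 RNAi, 1.49 to 1.51 in 10 µM bortezomib, 1.49 to 1.63 in 25 µM bortezomib and 1.42 to 1.49 in cantharidin, against 1.041 to 1.248 in controls, so that each library of these 4 groups stood above all controls. It was 1.043, 1.265 and 1.297 in starvation and 1.106, 1.311 and 1.086 in fluphenazine, both of which overlapped with the controls.

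Marker levels of other tissues differed between the libraries. The mean log2(FPKM + 1) of 20 oocyte and eggshell genes, relative to the control mean, was -1.52, 0.14 and -2.22 in fluphenazine 2, 4 and 9, against 0.26, 0.25 and -0.51 in controls 4, 6 and 7. It was -0.10, 0.00 and -0.31 in rpn-6 RNAi, 0.18 to 0.26 in 10 µM bortezomib, -1.41 to -0.65 in 25 µM bortezomib, -4.31 to -1.30 in starvation and -1.01 to -0.09 in cantharidin. The same mean over 10 intestinal genes was -1.37 to -0.97 in rpn-6 RNAi, 0.07 to 0.09 in 10 µM bortezomib and -1.99 to -0.83 in 25 µM bortezomib. It was 0.00 to 0.38 in starvation, -0.35 to 0.57 in fluphenazine and -1.55 to 0.17 in cantharidin, against -0.28 to 0.17 in controls. Of 10 neuronal genes, 7 were called higher in rpn-6 RNAi, 0 in 10 µM bortezomib (limma; median 0.18), 10 in 25 µM bortezomib, 9 in starvation and 10 each in fluphenazine and cantharidin. Of 128 cuticle collagens, 28, 0 and 67 were called higher in rpn-6 RNAi, 10 µM and 25 µM bortezomib and 59, 42 and 29 in starvation, fluphenazine and cantharidin, and of 75 sperm genes 2, 6, 30, 15, 14 and 16 in the same order. Of 10 body wall muscle genes 3 or 4 were called lower in each treatment, and 15 germline genes had 0 to 4 called higher and 0 to 6 called lower. Of all genes, 27.9%, 9.61%, 42.3%, 39.1%, 34.4% and 31.9% were called higher, in the order of the collagen counts. In that order 8.81%, 3.24%, 11.1%, 18.4%, 9.39% and 5.96% were called lower. The collagen share called higher was above that of all genes only in 25 µM bortezomib and starvation, and the sperm share in no treatment. The intestinal markers act-5 and vha-6 are listed at 0 in 5 and 2 libraries, and none of the abundant oocyte markers is. ddi-1 was higher in 10 µM bortezomib, where the oocyte and intestinal lists stood near the control level. There the germline list stood at 0.49 to 0.51, against -0.07 to 0.14 in controls. The body wall muscle list stood at -0.44 to -0.43, against -0.21 to 0.42 in controls. ddi-1 was also higher in rpn-6 RNAi and 25 µM bortezomib, where the intestinal list was lower and most neuronal genes were called higher. The collagen list stood at 0.69 to 1.12 in rpn-6 RNAi and 1.25 to 1.77 in 25 µM bortezomib. It stood at -0.58, -0.61 and 1.19 in controls 4, 6 and 7, so that the rpn-6 RNAi libraries overlapped with the controls. The part of tissue makeup in the ddi-1 level was not tested.

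Genes that overlap the 5 were read in the annotation (release 115). skn-1 on chromosome IV is overlapped on the opposite strand by csn-5, a subunit of the COP9 signalosome, and by clec-178, and png-1 on chromosome I by the amino acid transporter gene aat-9. No overlapping gene was found for ddi-1 on chromosome IV or for sel-1 and sel-11 on chromosome V. csn-5 averaged 77.6 FPKM and aat-9 31.5 FPKM over all libraries, and neither was called in any treatment against control. Strand use in the authors' counting is not given in the sources used here, and a share of the skn-1 and png-1 values may include reads of these neighbours.

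Between SEL-11 and DDI-1 acts the CDC-48 segregase with its cofactors. Of 14 further genes of ER export and processing, 5 rose in rpn-6 RNAi, 4 in 10 µM bortezomib and 4 in 25 µM bortezomib, beside 27.9%, 9.61% and 42.3% of all genes called higher, so that the share at 25 µM was below that of all genes. None fell in rpn-6 RNAi or 10 µM bortezomib, and 1, the ER ubiquitin ligase gene rnf-121, fell in 25 µM bortezomib (-0.36), though not without 25 µM bortezomib 6 (-0.29) or control 4 (-0.25). In starvation 7 fell, in fluphenazine 4 fell and 1 rose, and in cantharidin none was called, beside 18.4%, 9.39% and 5.96% of all genes called lower. The list's median difference was 0.24, 0.26 and 0.07 in the 3 proteasome-impaired groups, beside 0.31, 0.16 and 0.40 for all genes, and -0.28, -0.23 and -0.11 in starvation, fluphenazine and cantharidin, beside 0.38, 0.34 and 0.34. Median-of-ratios scaling left 2, 0 and 1 called higher in rpn-6 RNAi, 10 µM and 25 µM bortezomib, with 7 called lower in 25 µM bortezomib, and called 12, 13 and 10 lower in starvation, fluphenazine and cantharidin.

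ufd-1, which encodes a cofactor that recruits CDC-48 to ubiquitinated proteins, had 158, 137 and 146 FPKM in rpn-6 RNAi worms, 142, 147 and 151 FPKM in 10 µM bortezomib and 154.8, 171 and 170.0 FPKM in 25 µM bortezomib, against 99.5, 98.3 and 95.7 FPKM in controls. The treated libraries all lay above the controls, and the rises were 0.58, 0.58 and 0.75, none of them called under median-of-ratios scaling (0.20, 0.31 and 0.30). In starvation ufd-1 fell, but not without starvation 3 (-0.22). In fluphenazine it fell too, but not without fluphenazine 2 or 9 or control 4 or 6 (-0.24 to -0.18). npl-4.1 and npl-4.2, which encode the partner of UFD-1, rose by 0.92 and 0.86 in rpn-6 RNAi, 0.76 and 0.72 in 10 µM bortezomib and 0.87 and 0.81 in 25 µM bortezomib; these near-identical genes can share reads, so their separate values are uncertain. Median-of-ratios scaling kept the npl-4.1 call in rpn-6 RNAi (0.55) and 25 µM bortezomib (0.42) and the npl-4.2 call in rpn-6 RNAi (0.49). cdc-48.2 rose by 0.46, 0.50 and 0.53, again with no call under median-of-ratios scaling (0.08, 0.23 and 0.08). Its fall in fluphenazine was not called without fluphenazine 9 (-0.26). The closely related cdc-48.1 differed by 0.19, 0.38 and 0.07, none called, and quantile normalization called it in 10 µM bortezomib (0.465). Whether the 2 segregase genes differ from each other was not tested.

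**Figure D4:**
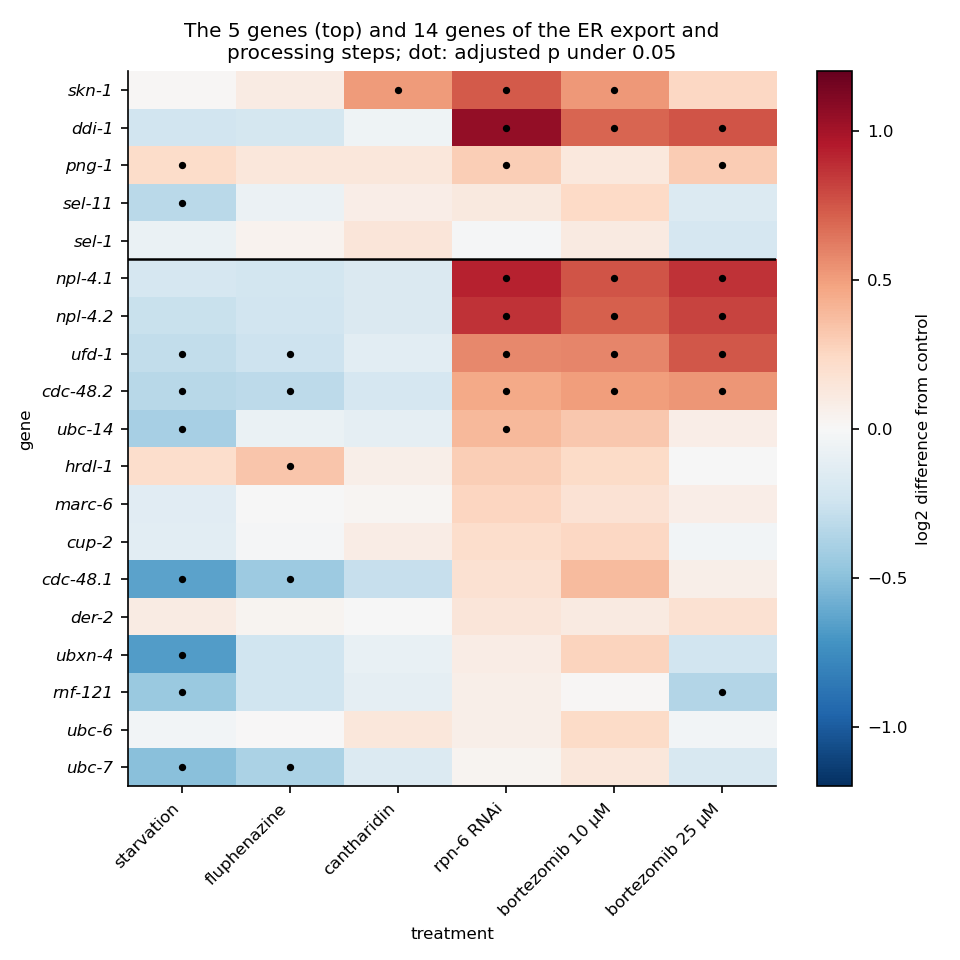
Difference from control (colour, log2) of the 5 genes, above the line, and of 14 genes of ER export and processing, ordered by their value in rpn-6 RNAi; dots mark an adjusted p under 0.05. npl-4.1, npl-4.2, ufd-1 and cdc-48.2 carry dots in rpn-6 RNAi and both bortezomib doses, together with ddi-1, and ufd-1 and cdc-48.2 are lower in starvation and fluphenazine.

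Among 20 regulators of SKN-1, 19 were tested, and sknr-1 was near 0 throughout. In rpn-6 RNAi 11 rose and 1 fell, in 10 µM bortezomib 4 rose, in 25 µM bortezomib 14 rose and 2 fell, in starvation 12 rose and 1 fell, in fluphenazine 13 rose and 1 fell, and in cantharidin 10 rose and 2 fell. Of all genes, 27.9%, 9.61%, 42.3%, 39.1%, 34.4% and 31.9% were called higher in that order, and 8.81%, 3.24%, 11.1%, 18.4%, 9.39% and 5.96% lower. The regulators' medians of 0.34, 0.23, 0.34, 0.48, 0.51 and 0.29 differed from those of all genes by 0.17 or less, and median-of-ratios scaling left 4, 2, 4, 7, 6 and 3 called higher. wdr-23, the adaptor that targets SKN-1C for degradation, had 109, 126 and 120.6 FPKM in rpn-6 RNAi worms, 101, 101 and 96.95 FPKM in 10 µM bortezomib and 115.3, 114 and 104 FPKM in 25 µM bortezomib, against 53.6, 59.95 and 43.9 FPKM in controls. It stood above all controls in these groups and rose by 1.17, 0.92 and 1.08, and by 0.39, 0.54 and 0.47 in starvation, fluphenazine and cantharidin. Median-of-ratios scaling kept the calls of the proteasome-impaired groups (0.79, 0.65 and 0.63) and not the other 3 (0.03, 0.12 and 0.06). tir-1, the TIR-domain adaptor upstream of the p38 kinase PMK-1, rose by 2.03, 0.88 and 2.07 in the 3 proteasome-impaired groups and by 0.96, 1.69 and 2.26 in starvation, fluphenazine and cantharidin. Quantile normalization ended the tir-1 calls in 10 µM bortezomib (0.43) and starvation (0.27), and that in 10 µM bortezomib was also lost without its library 7 (0.76). sgk-1, a serum- and glucocorticoid-inducible kinase, fell by 1.17 in rpn-6 RNAi and rose by 1.06 in starvation.

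Detoxification genes known as SKN-1 targets rose with an impaired proteasome. Of 18, 14 rose and 3 fell in rpn-6 RNAi, 11 rose and 2 fell in 10 µM bortezomib, and 14 rose and 3 fell in 25 µM bortezomib, with medians of 1.50, 0.78 and 1.10. In these groups 27.9%, 9.61% and 42.3% of all genes were called higher and 8.81%, 3.24% and 11.1% lower, with medians of 0.31, 0.16 and 0.40. In starvation 5 rose and 7 fell, and in fluphenazine and cantharidin 4 rose and 6 fell, with medians of -0.11, -0.23 and -0.19, beside 0.38, 0.34 and 0.34 for all genes. There 39.1%, 34.4% and 31.9% of all genes were called higher and 18.4%, 9.39% and 5.96% lower. Median-of-ratios scaling kept 12, 8 and 11 called higher in the 3 proteasome-impaired groups. gst-4, a glutathione S-transferase used as the standard reporter of SKN-1 activity, had 339.6, 340.3 and 336 FPKM in rpn-6 RNAi worms, 199, 213 and 203 FPKM in 10 µM bortezomib and 192, 201 and 176 FPKM in 25 µM bortezomib. It had 33.4, 39.1 and 31.4 FPKM in starved worms, 30.8, 19.4 and 32.0 FPKM in fluphenazine and 30.2, 38.3 and 25.0 FPKM in cantharidin, against 66.4, 65.2 and 69.3 FPKM in controls. Its groups did not overlap with the controls in either direction: it rose by 2.32, 1.60 and 1.49 in rpn-6 RNAi, 10 µM and 25 µM bortezomib, and fell in starvation, fluphenazine and cantharidin (-0.94, -1.29 and -1.10), all called under both scalings.

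The largest rises among the targets in rpn-6 RNAi were those of dhs-8, a short-chain dehydrogenase (4.97), gst-30 (4.45), sdz-8 (3.51) and gst-5 (3.27). In 10 µM and 25 µM bortezomib these were 2.83 and 3.68 for dhs-8, 3.40 and 3.90 for gst-30, 3.25 and 3.93 for sdz-8, and 1.27 and 2.03 for gst-5, all called, also under both scalings. aip-1, the arsenite-inducible protein that associates with the proteasome, rose by 2.44, 1.52 and 1.21. gcs-1, which makes the first enzyme of glutathione synthesis, rose by 0.33 in rpn-6 RNAi and 0.28 in 25 µM bortezomib, and median-of-ratios scaling turned both (-0.05 and -0.16), while quantile normalization left neither called (0.16 and 0.15). gst-10 fell in all 6 treatments, with differences of -0.66, -1.70 and -1.92 in rpn-6 RNAi, 10 µM and 25 µM bortezomib and of -3.18, -3.06 and -3.41 in starvation, fluphenazine and cantharidin. Its call in rpn-6 RNAi was lost without rpn-6 RNAi 5 or 6 or control 4 or 7 (-0.70 to -0.49).

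Proteasome subunit genes, the targets of SKN-1A, were called in opposite directions. Of 34, 28 rose in rpn-6 RNAi, 27 in 10 µM bortezomib and 21 in 25 µM bortezomib, with none lower, beside 27.9%, 9.61% and 42.3% of all genes called higher. In starvation 30 fell and 1 rose, and in fluphenazine and cantharidin 29 fell, beside 18.4%, 9.39% and 5.96% of all genes called lower. The medians were 0.43, 0.51 and 0.34 in the proteasome-impaired groups, beside 0.31, 0.16 and 0.40 for all genes, and -0.58, -0.45 and -0.40 in starvation, fluphenazine and cantharidin. Median-of-ratios scaling left 1 called higher in each proteasome-impaired group (and 1 lower in rpn-6 RNAi and in 25 µM bortezomib), and called 32 lower in each of starvation, fluphenazine and cantharidin. rpn-10, a ubiquitin receptor, rose by 0.65, 0.60 and 0.65, rpt-3, an ATPase of the base, by 0.58, 0.58 and 0.45, and pbs-5, the chymotrypsin-like core subunit, by 0.43 and 0.27 in rpn-6 RNAi and 25 µM bortezomib, with 0.30 in 10 µM bortezomib not called. Median-of-ratios scaling left none of these rises called, and at 25 µM it gave pbs-5 -0.18 and rpt-3 -0.00. The pbs-5 call at 25 µM was also lost under quantile normalization (0.23) and without 25 µM bortezomib 4 or 6 or any 1 of the controls (0.20 to 0.29). The values of pas-5 were 0 in 9 libraries and between 225.6 and 478.1 FPKM elsewhere, so its large differences in the plot of downstream genes carry no reading.

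**Figure D5:**
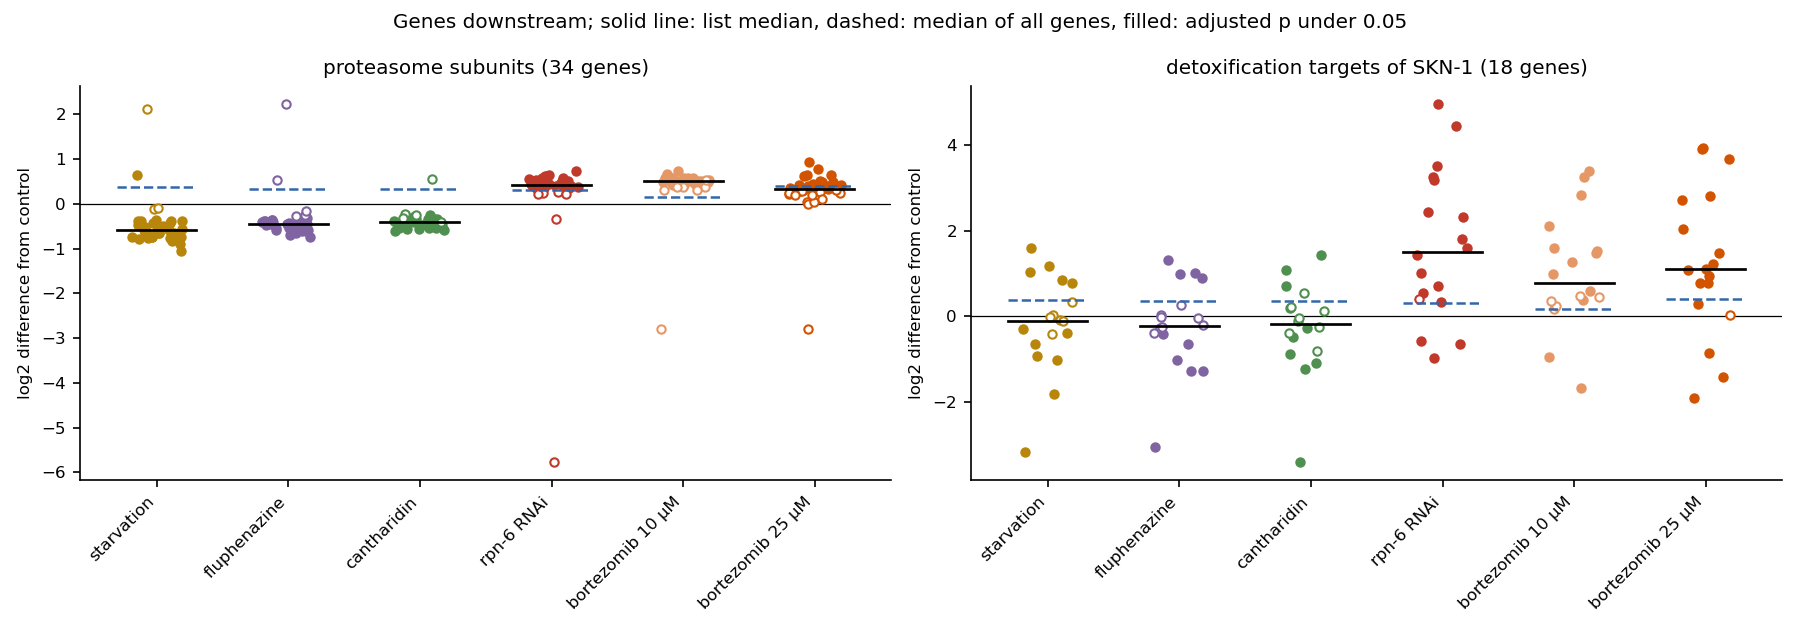
Difference from control (log2) of 34 proteasome subunit genes and 18 detoxification targets, 1 point per gene, filled where the adjusted p is under 0.05; solid lines are list medians and dashed lines the median of all genes. Proteasome medians are 0.43, 0.51 and 0.34 with an impaired proteasome and -0.58, -0.45 and -0.40 in starvation, fluphenazine and cantharidin; the outlying proteasome points are pas-5, listed at 0 in 9 libraries.

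Embryonic endoderm genes, targets of maternal SKN-1, were barely measured. med-1 and med-2 did not reach the filter, and end-1, end-3 and elt-7 were tested. elt-7, an intestinal GATA factor, rose by 1.63 in starvation, 1.68 in fluphenazine and 0.78 in cantharidin. end-3 rose by 1.53 in 25 µM bortezomib and 0.88 in 10 µM bortezomib, from levels of at most 4.55 FPKM, and end-1 fell in starvation (-0.68). Quantile normalization ended both end-3 calls (0.64 at 25 µM and 0.62 at 10 µM) and the elt-7 call in cantharidin (0.03). The end-3 call at 10 µM was lost without any 1 of its libraries or control 7 (0.60 to 0.91), and that of end-1 in starvation without any starvation library or control 4 or 6 (-0.68 to -0.49).

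Over the 21 libraries, the gene whose log2(FPKM + 1) pattern was most like that of ddi-1 was vps-2 (Pearson r = 0.980), followed by ubxn-1 and arp-6 (both 0.971), among 12090 named genes with a mean of at least 5 FPKM. skn-1 was most like mtk-1 (0.926), spe-48 (0.915) and F16B12.4 (0.914). The highest values were lower for png-1 (F41H10.4, 0.901) and sel-1 (F31E8.4, 0.865), and sel-11 was most like M01G5.1 (0.962). Between members, r was 0.736 for skn-1 and ddi-1, 0.725 for skn-1 and sel-11 and -0.04 for ddi-1 and sel-1. These values describe 7 groups of 3 libraries that share their treatments, so they rest on far fewer independent points than libraries.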

How the data were processed

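Whole-worm RNA of 21 libraries was deposited as FPKM per gene by the authors. CASAVA and Cufflinks are named in the submitters' processing notes; the aligner, genome build and gene models are not given in the sources used here. Libraries were made with the TruSeq Stranded mRNA kit, per the labels' protocols. Read totals were not used, so counting error is unknown; relative depth was read from the steps between low values. Gene IDs were matched to names of annotation release 115 (43200 of 46254 had a symbol).

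Genes that reached 1 FPKM in 3 or more libraries were tested on log2(FPKM + 1) in limma 3.58.1 (R 4.3.3; lmFit and eBayes with trend), with 1 mean per group, all 21 libraries in 1 fit and no covariate, two-sided, with Benjamini-Hochberg adjustment over the 17492 genes. A gene is called, and said to rise or fall, at an adjusted p under 0.05. Fold changes on this scale understate those of low genes. The fit was tested on simulated data. Tables and figures were made with Python 3.11.15, pandas 2.3.3 and matplotlib 3.10.9.

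Other settings tried were a filter of 5 FPKM, no filter, median-of-ratios scaling, a pseudocount of 0.1, quantile normalization, zeros of abundant genes as missing, a fit of only the groups compared, each library left out, and a replicate block. The members and lists were chosen with earlier results of these data known. Other genes named are those listed as key genes of the pathway, up to 4 called genes of a list with the largest change in the commoner direction and up to 2 in the other, the 3 genes most like each member, and genes that overlap a member. The names rnf-121, end-1, act-5, vha-6 and pas-5 were given after their values were seen. The list gene rhbd-1 had no match. Sequences were not analysed here.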

Additional observations from a re-analysis of the deposited data

How the results depend on the processing

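Of 720 alternative values for the members and for the counts of called genes, 629 kept their side of the threshold (or, for counts, stayed within 1.5 times). Differences not called in either setting are among these even where their direction turned, as for skn-1 in 25 µM bortezomib under median-of-ratios scaling (-0.197). Of the rest, 34 were no longer called, 26 became called, 20 counts moved further and 11 turned with a call in at least 1 of the settings. ddi-1 in rpn-6 RNAi against control was called under every alternative tried. FPKM hold no spike-in or read total with which the lower size factors of the controls could be judged, and the cause of each loss or gain was not tested. Depth limits low genes, and the counting error of a value is unknown.

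Median-of-ratios scaling gave, against control, -0.357 (starvation), 0.092 (cantharidin), 0.355 (rpn-6 RNAi) and 0.247 (10 µM bortezomib) for skn-1, and -0.597 (starvation), -0.623 (fluphenazine), 0.425 (10 µM) and 0.308 (25 µM) for ddi-1. For png-1 it gave -0.139 (starvation), -0.273 (fluphenazine), -0.269 (cantharidin), -0.066 (rpn-6 RNAi) and -0.133 (25 µM). It gave -0.483 (fluphenazine) and -0.612 (25 µM) for sel-11, and -0.447 (starvation), -0.370 (fluphenazine), -0.394 (rpn-6 RNAi) and -0.651 (25 µM) for sel-1. It turned gcs-1 in rpn-6 RNAi (-0.048) and in 25 µM bortezomib (-0.164), pbs-5 (-0.179) and rpt-3 (-0.001), both in 25 µM. For 25 µM against 10 µM it gave skn-1 -0.444, now called, and for 25 µM against rpn-6 RNAi sel-11 -0.352, no longer called. Quantile normalization gave png-1 -0.119 (starvation), -0.305 (cantharidin), -0.070 (rpn-6 RNAi) and -0.295 (25 µM), and called sel-11 (-0.292) and sel-1 (-0.331) in 25 µM bortezomib.

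A fit of only the groups compared called 5398 genes in starvation and 2567 in fluphenazine, against 10066 and 7658, and 12085 for 25 µM against 10 µM, 8403 for 25 µM against rpn-6 RNAi and 9603 for 10 µM against rpn-6 RNAi, against 6932, 3861 and 4212. In it png-1 was not called in starvation (0.220), rpn-6 RNAi (0.300) or 25 µM bortezomib (0.303), nor sel-11 in starvation (-0.321) or ddi-1 in 10 µM bortezomib (0.698). It called skn-1 (-0.267) and png-1 (0.173) for 25 µM against 10 µM, ddi-1 (-0.300) for 25 µM against rpn-6 RNAi, and skn-1 (-0.212), ddi-1 (-0.359), png-1 (-0.169) and sel-11 (0.128) for 10 µM against rpn-6 RNAi. A filter of 5 FPKM called skn-1 in 25 µM bortezomib against control (0.252) and against 10 µM (-0.267). For 25 µM against rpn-6 RNAi, sel-11 was not called with a pseudocount of 0.1 (-0.283) or with no filter (-0.280).

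Whether a replicate number shared between groups marks a common batch is not known. The correlations of same-numbered deviations ran from -0.471 (fluphenazine 9 with cantharidin 9) to 0.544 (fluphenazine 4 with control 4). With 3 libraries per group they cannot decide it. With the replicate number as a block, 4016 genes were called in rpn-6 RNAi against control, against 6425, and 448 in 25 µM bortezomib against rpn-6 RNAi, against 3861. The block left png-1 uncalled in rpn-6 RNAi (0.301) and 25 µM bortezomib (0.241), and skn-1 (-0.472) and sel-11 (-0.225) uncalled for 25 µM against rpn-6 RNAi. Starvation and cantharidin also share 2 numbers, and with the block 1617 genes were called between them, against 4301. No paired analysis was possible because of too few shared numbers (fewer than 2) in the other comparisons.

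With 1 library left out at a time, counts of called genes ran from 4560 to 11010 in fluphenazine, 4319 to 7739 in cantharidin, 1124 to 2514 in 10 µM bortezomib and 1913 to 2460 for 25 µM against rpn-6 RNAi. In starvation, ddi-1 ran from -0.406 to -0.125, png-1 from 0.166 to 0.284, sel-11 from -0.406 to -0.276 and sel-1 from -0.235 to 0.022. ddi-1 ran from -0.456 to -0.055 in fluphenazine and png-1 from 0.246 to 0.364 in rpn-6 RNAi. In 25 µM bortezomib, skn-1 ran from 0.171 to 0.322, sel-11 from -0.248 to -0.108 and sel-1 from -0.360 to -0.103. For 25 µM against 10 µM sel-1 ran from -0.343 to -0.262, and for 25 µM against rpn-6 RNAi sel-11 ran from -0.317 to -0.224. Counts moved by more than 1.5 times without fluphenazine 2 (4873) or 9 (4560), without cantharidin 3 (4319), in 10 µM bortezomib without any 1 of its libraries (1124 to 1388) or control 4 (1494), and for 25 µM against rpn-6 RNAi without any 1 library of the pair. Among 106 differences of other named genes from control, leaving out 1 library ended the call of 15 and added a call to 3. The libraries whose removal changed a call of 1 of the 5 genes are named beside the results.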
